A study of Mus musculus with 4 samples.

Results

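The genes described here encode the COPI and COPII vesicle coats and the receptors that ride in those vesicles. The 32 members were chosen by name: 8 genes of the COPII inner coat and its Sar1 GTPases, 4 of the COPII outer coat and exit-site scaffold, 10 of the COPI coatomer with its GTPase gene Arf1, 3 KDEL receptor genes and 7 cargo receptor genes. All 32 were found among the 34866 genes of the deposited table, and all 32 passed the filter on low counts. They were measured by RNA sequencing of gastric corpus mucosa from mice with intact Muc6 (genotype Muc6 +/+, called wild type, 2 libraries) and from mice without it (genotype Muc6 -/-, called knockout, 2 libraries). Muc6 encodes a mucin secreted by mucous cells of the gastric glands, and the question was how this gene relates to cancer of the stomach. The sources used here give no age, strain or sex, and do not say how the allele was made. Whether the 2 libraries of each genotype are from different mice is not stated, so the p-values reflect only how far these samples lie apart, which may be technical.

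COPII coats form at exit sites of the endoplasmic reticulum (ER) and carry newly made proteins towards the Golgi. COPI coats form on the Golgi and the intermediate compartment and return receptors, escaped ER proteins and Golgi enzymes. Secretory cells such as the zymogen-making chief cells and the mucous cells of gastric glands depend on both routes, because all secreted mucins and enzymes pass through them. KDEL receptors bind escaped chaperones by a short tail signal in the Golgi and send them back in COPI vesicles.

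Total counts were 27946423 and 20895793 in wild type 1 and 2 and 20327745 and 21717123 in knockout 1 and 2. Muc6 itself (ENSMUSG00000048191.15, build mm10, chr7:141633456-141655319, minus strand) had counts of 8542 and 6000 in the wild-type libraries against 0 and 10 in the knockouts, which matched the labels in all 4 libraries. The mucosa was not of the same make-up in the 4 libraries. Markers of acid-secreting parietal cells summed to 22605 and 21106 CPM (the count as a share of the scaled library size) in the wild-type libraries and 3170 and 8208 CPM in knockout, and all 13 were lower in knockout in both libraries. The highest of them, Atp4a, was at 10503 and 10456 against 353 and 3331 CPM. Chief cell markers summed to 78249 and 181759 CPM in the wild-type libraries and 2842 and 95180 CPM in knockouts 1 and 2, with Pgc the highest and Lipf at 0 in all libraries. Mucous neck and metaplasia markers, led by Tff2, summed to 2824 and 2139 against 18585 and 11359 CPM. Of these 10 genes, 8 were higher in knockout without overlap, 1 (Muc6) was lower and 1 overlapped. Squamous forestomach markers, led by Krt13, summed to 0.928 and 0.417 CPM in the wild-type libraries and 158.9 and 13.1 CPM in the knockouts, with Trp63, Sprr3 and Krtdap at 0 throughout. Markers of antrum and duodenum, led by Vil1, summed to 157 and 258.5 CPM in the wild-type libraries against 868 and 265 CPM in the knockouts. Without Sst, which is also an enteroendocrine gene and was lower in the fit, that sum was 68.7 and 41.5 against 847 and 131 CPM. The 13 mitochondrial genes took 9.39% and 8.73% of the wild-type counts and 5.97% and 5.41% of the knockout counts. The 4 Y-linked genes measured summed to 136 and 121 CPM in the wild-type libraries and 1.44 and 2.44 CPM in the knockouts, so genotype and Y-linked expression cannot be told apart for any result here. In bulk tissue, fewer cells of a type and less RNA per cell cannot be told apart either.

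Some promoters of the members share short sequences that the choice by name did not use. Of the 32 members, 28 matched a promoter in the RefSeq table (build GRCm38.p6, windows of 300 bases from 250 before to 50 after a start site), and Kdelr2, Lman1, Arcn1 and Tmed2 did not. Searched on both strands were 5 motifs: the unfolded protein response element UPRE (TGACGTGG), the Golgi stress element GASE (ACGTGGC), the ER stress elements ERSE (CCAAT and CCACG with 9 bases between them) and ERSE-II (ATTGG and CCACG with 1 base between them), and the cyclic AMP element CRE (TGACGTCA). UPRE and GASE share the letters ACGTGG, so a run of TGACGTGGC counts as both. The UPRE letters stood in 7 of 28 member promoters (25%), against 1.02% of genes tested with a promoter and 0.714% of all genes with one. The GASE letters stood in 14 of 28 (50%), against 4.44% and 2.95%. Of the 28 members, 5 held both and 12 held neither. The median GC content of the windows was 58.7% for members and 60.7% for genes tested. The 7 members with the UPRE letters are printed because they show the shared core in its different settings. The motif is in capitals, each line is the strand of the gene from 5′ to 3′, and CCACGTCA is the motif read from the other strand.
Sec23a, chr12:59011993-59012022, minus strand: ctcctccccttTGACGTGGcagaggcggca
Sec24d, chr3:123267459-123267488, plus strand: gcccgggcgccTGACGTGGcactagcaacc
Sec16b, chr1:157506741-157506770, plus strand: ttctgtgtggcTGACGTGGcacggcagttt
Copb1, chr7:114254690-114254719, minus strand: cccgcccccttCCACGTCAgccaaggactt
Copb2, chr9:98563713-98563742, plus strand: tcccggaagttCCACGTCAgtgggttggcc
Arf1, chr11:59228228-59228257, minus strand: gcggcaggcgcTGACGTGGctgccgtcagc
Kdelr3, chr15:79516367-79516396, plus strand: tggccgccccgCCACGTCAccgcgcggcca

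The ERSE letters stood in 0 of 28 member promoters and the ERSE-II letters in 0 of 28, while 1 member, Cope, held the CRE letters (3.57% of members, 3.50% of genes tested). Of 15 matched genes among the ER lumen chaperones and folding enzymes that KDEL receptors retrieve, 5 held the ERSE letters (33.3%, against 0.158% of genes tested), 3 the GASE letters and 0 the UPRE letters. Of 100 other matched ER-Golgi genes, 14 held the GASE letters and 3 the UPRE letters. ERSE matches in 3 lumen genes are printed because no member held that motif, with the ERSE in capitals.
Hspa5, chr2:34772020-34772048, plus strand: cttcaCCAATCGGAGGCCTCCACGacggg
Pdia6, chr12:17266486-17266514, plus strand: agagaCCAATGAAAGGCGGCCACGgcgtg
Creld2, chr15:88819515-88819543, plus strand: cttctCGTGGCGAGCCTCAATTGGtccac

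The 150 bases before the start site of Kdelr3, the member with the largest difference, hold a single run of 9 bases in which UPRE and GASE overlap, in capitals.
Kdelr3, chr15:79516258-79516407, plus strand: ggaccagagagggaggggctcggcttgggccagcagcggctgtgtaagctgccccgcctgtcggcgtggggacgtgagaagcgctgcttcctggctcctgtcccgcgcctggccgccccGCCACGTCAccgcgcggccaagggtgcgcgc

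**Figure D1:**
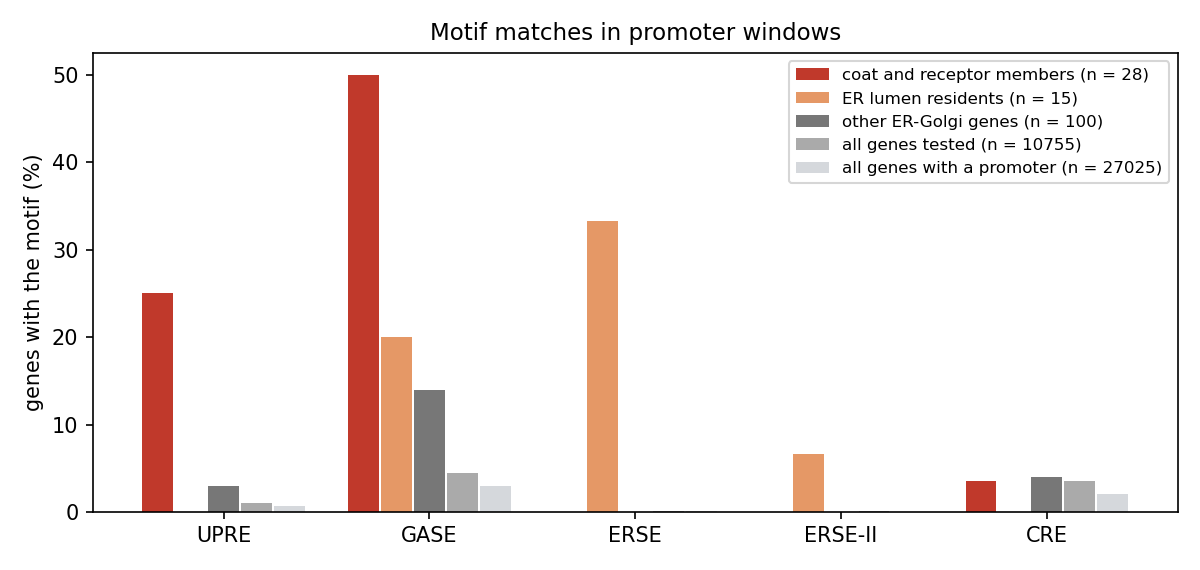
Percentage of genes (y axis) whose promoter window holds each of 5 motifs (x axis), for members, ER lumen residents, other ER-Golgi genes, all genes tested and all genes with a promoter in the table. UPRE and GASE matches were at 25% and 50% among members, and ERSE matches at 33.3% among the lumen residents and 0 among members.

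As a group the members lay slightly higher in knockout, by amounts not much larger than their median difference between the wild-type libraries. In the fit across all genes 26 of 32 had a log2 fold change above 0 (81.2%, against 49.9% of the 14067 genes tested), and the median was 0.14 against a median of -0.0017 for all genes tested. The members' median difference between wild type 2 and wild type 1 was -0.10, against -0.079 for all genes tested. Their medians above the wild-type mean were 0.17 in knockout 1 and 0.18 in knockout 2, against 0.0009 and 0.025 for all genes tested. Without wild type 1 the members' median log2 fold change was 0.26, and without wild type 2 it was 0.065, against 0.0359 and 0.0375 for all genes. Knockout 2 lay above knockout 1 for 18 members, against 50.9% of genes tested. The sum of mucous neck and metaplasia markers and that of proliferation markers were also higher in both knockout libraries. The mitochondrial share was lower, and the part of all these in the members' values was not tested. Summed over the members the level was 3979 and 3646 CPM in the wild-type libraries and 4378 and 4321 CPM in the knockouts.

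No member passed the threshold of 0.05 in edgeR's quasi-likelihood test with Benjamini-Hochberg adjustment (0 of 32, with 0% of all genes tested passing). At an unadjusted p under 0.05 there were 4 members, all higher (12.5%, against 15.9% of genes tested, with 9.22% higher and 6.68% lower). DESeq2 called 1 member, Ergic1, higher in knockout, against 7.42% of genes tested (4.06% higher and 3.36% lower), and limma voom called 0. Both knockout libraries lay above both wild-type libraries for 17 members (53.1%, against 26.3% of genes tested) and below both for 3 (9.38%, against 23.8%), so 20 did not overlap (62.5%, against 50.1%). Differences over 1.5-fold in the fit were seen in 2 members, Ergic1 and Kdelr3 (6.25%, against 30.0% of genes tested). An exact permutation test on 4 libraries has 0.33 as its smallest p.

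**Figure D2:**
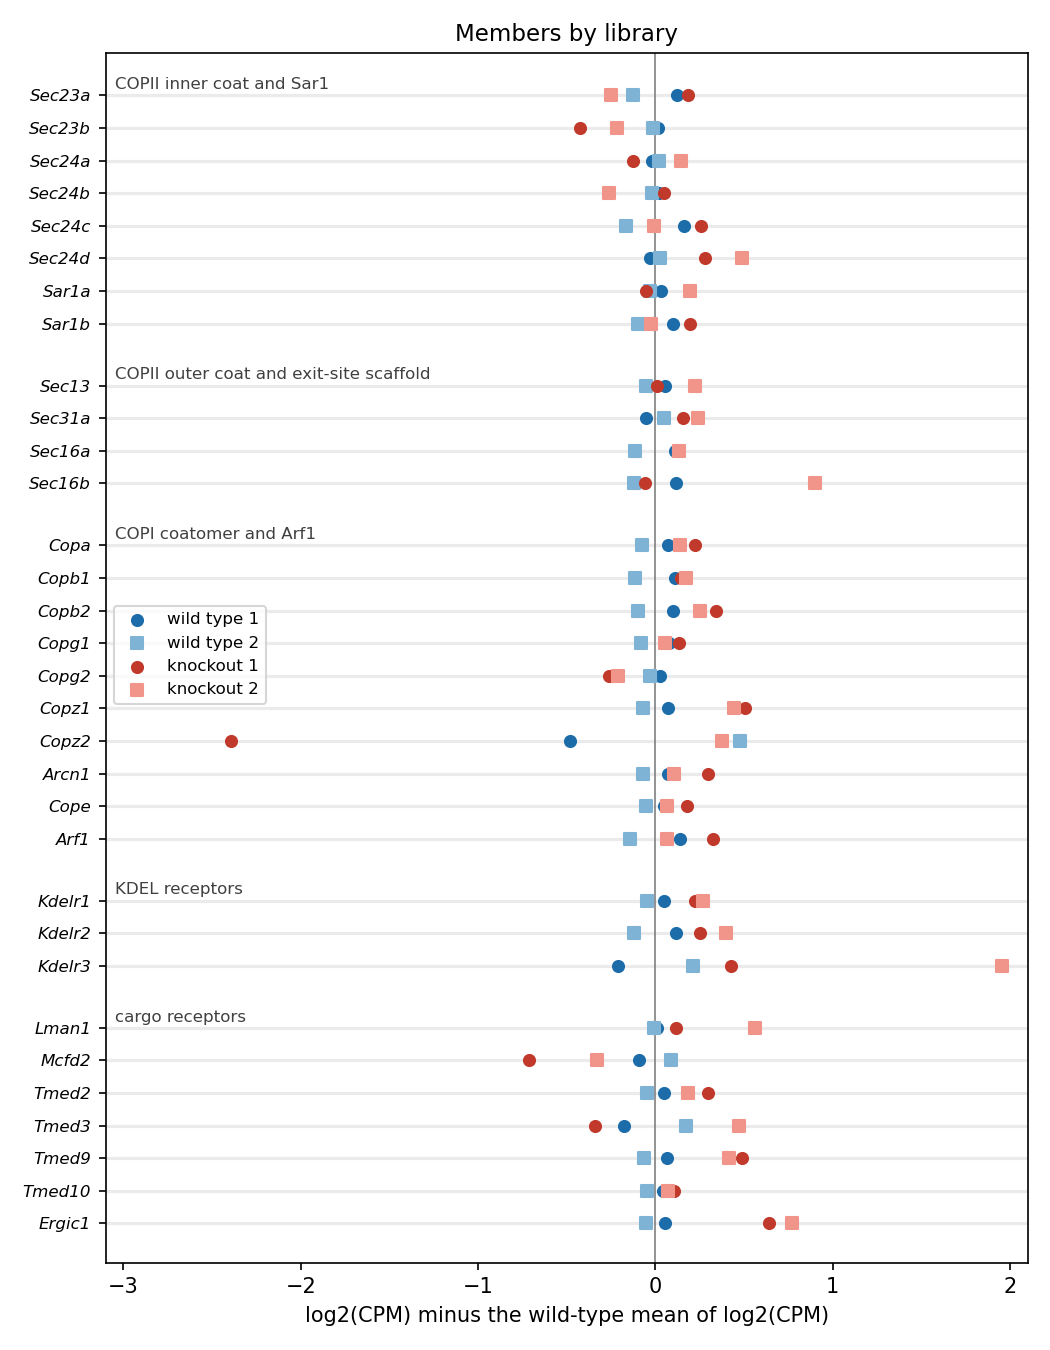
Level of each member in each library as log2 CPM minus the wild-type mean (x axis), with members grouped by role (y axis); blue points are wild type, red points knockout, circles library 1 and squares library 2. Most members lie within 0.5 of the wild-type mean, and Copz2 in knockout 1 and Kdelr3 in knockout 2 lie farthest out.

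The COPII inner coat was the group with the least difference. It consists of Sec23, which activates the Sar1 GTPase, and Sec24, which binds cargo. Of these 8 genes, 5 were higher and 3 lower, with a median log2 fold change of 0.05. Sec24d (ENSMUSG00000039234.11, chr3:123267455-123365641, plus strand), a cargo-binding isoform, was at 46.2 and 48.0 CPM in the wild-type libraries and at 57.2 and 66.1 CPM in the knockouts. Both knockout values lay above both wild-type values, and the log2 fold change was 0.39 ± 0.14 (SE from 2 libraries per genotype, with 0.312 as the adjusted p of edgeR). Sec23b, 1 of the 2 Sec23 isoforms, was at 117 and 115 CPM in the wild-type libraries and at 86.2 and 99.8 CPM in the knockouts. It was lower in both knockout libraries (log2 fold change -0.32 ± 0.16, with 0.414 as the adjusted p of edgeR). Its paralog Sec23a overlapped between the genotypes, at 50.6 and 42.6 against 52.8 and 39.1 CPM. Sec23b made up 69.8% and 72.9% of the counts of the pair for wild type against 62.0% and 71.9% for knockout, so the low share was in knockout 1. The other 5 genes, Sec24a, Sec24b, Sec24c, Sar1a and Sar1b, overlapped between the genotypes, with log2 fold changes from -0.10 for Sec24b to 0.12 for Sec24c.

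Sec24a and Sar1b lie head to head on chromosome 11, with 52 bases between the annotated genes. Sec24a was at 40.4 and 41.5 CPM in the wild-type libraries and at 37.4 and 45.3 CPM in the knockouts. Sar1b was at 55.3 and 48.1 against 59.1 and 50.7 CPM. Neither separated the genotypes, and in knockout the library with the higher Sec24a level had the lower Sar1b level.

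The outer coat and scaffold genes were higher in 4 of 4 cases, with a median of 0.16. Sec31a, which forms the outer cage together with Sec13, was at 115 and 123 CPM in the wild-type libraries and at 132 and 140.2 CPM in the knockouts, without overlap (log2 fold change 0.20 ± 0.15, with 0.594 as the adjusted p of edgeR). Sec13, which also serves in nuclear pores, was at 65.5 and 60.8 against 63.5 and 73.8 CPM, and the genotypes overlapped. Sec16a, the main exit-site scaffold, was at 141 and 121 CPM in the wild-type libraries and 143 CPM in both knockout libraries. Sec16b, its shorter paralog, was at 17.7 and 15 CPM in the wild-type libraries and at 15.7 and 30.4 CPM in the knockouts. The high value was in knockout 2 only, and without that library the log2 fold change went from 0.49 to -0.12. Sec16b took 11.2% and 11.1% of the counts of the Sec16 pair for wild type against 9.86% and 17.5% for knockout.

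Most subunits of the COPI coatomer lay slightly higher in knockout. Coatomer is recruited to membranes by Arf1, and its subunits assemble as 1 complex. Of the 10 genes, 8 were higher and 2 lower, with a median of 0.17, and their sum was 1802 and 1590 CPM in the wild-type libraries and 2028 and 1861 CPM in the knockouts. Copb2, the beta-prime subunit, was at 213 and 185 CPM in the wild-type libraries and at 251.5 and 236 CPM in the knockouts (log2 fold change 0.29 ± 0.18, with 0.502 as the adjusted p of edgeR). Copa, the alpha subunit, was at 283 and 255 against 314 and 296 CPM. Copb1, the beta subunit, was at 165 and 141 against 169 and 172 CPM. These 3 subunits did not overlap between the genotypes, but the gap between the nearest libraries of different genotype was smaller than the gap between the wild-type libraries. Arcn1, the delta subunit, was at 283 and 257 CPM in the wild-type libraries and at 332 and 291 CPM in the knockouts. Cope, the epsilon subunit, was at 94.7 and 88.3 against 104 and 95.9 CPM. Arf1 was at 473 and 390 against 538 and 450 CPM, so it overlapped between the genotypes, and so did Copg1, with a log2 fold change of 0.09 ± 0.15.

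The paralogs of the gamma and zeta subunits had fold changes of opposite sign. Copz1 (ENSMUSG00000060992.9, chr15:103272714-103299868, plus strand), the common zeta subunit, was at 112 and 102 CPM in the wild-type libraries and at 152 and 145.5 CPM in the knockouts. It was higher in both knockout libraries (log2 fold change 0.47 ± 0.15, SE, n = 2 per group, with 0.284 as the adjusted p of edgeR), which was the largest positive value in the coatomer. Its paralog Copz2 (ENSMUSG00000018672.15, chr11:96849870-96861203, plus strand) was at 8.11 and 15.8 CPM in the wild-type libraries and at 2.15 and 14.7 CPM in the knockouts, with 201, 303, 48 and 356 counts. Copz2 thus overlapped between the genotypes and was low in knockout 1, and its log2 fold change of -0.50 ± 0.98 became 0.24 without that library, 0.05 without wild type 2 and -2.53 without knockout 2. Markers of connective tissue had a like split between libraries. The 10 fibroblast markers, led by Col3a1, summed to 72.2 and 670 CPM in the wild-type libraries and 107.5 and 652 CPM in the knockouts, and the 10 smooth muscle markers, led by Myh11, to 383 and 2312 against 519 and 2388 CPM. In each genotype, library 2 was higher for both marker sums and for Copz2. The split was not particular to connective tissue, as the chief cell, enteroendocrine, and macrophage and myeloid marker sums were also higher in library 2 of each genotype. The enteroendocrine sum was 572 and 1260 CPM in the wild-type libraries and 135 and 573 CPM in the knockouts. The part of connective tissue or of these other cell types in the Copz2 values was not tested.

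**Figure D3:**
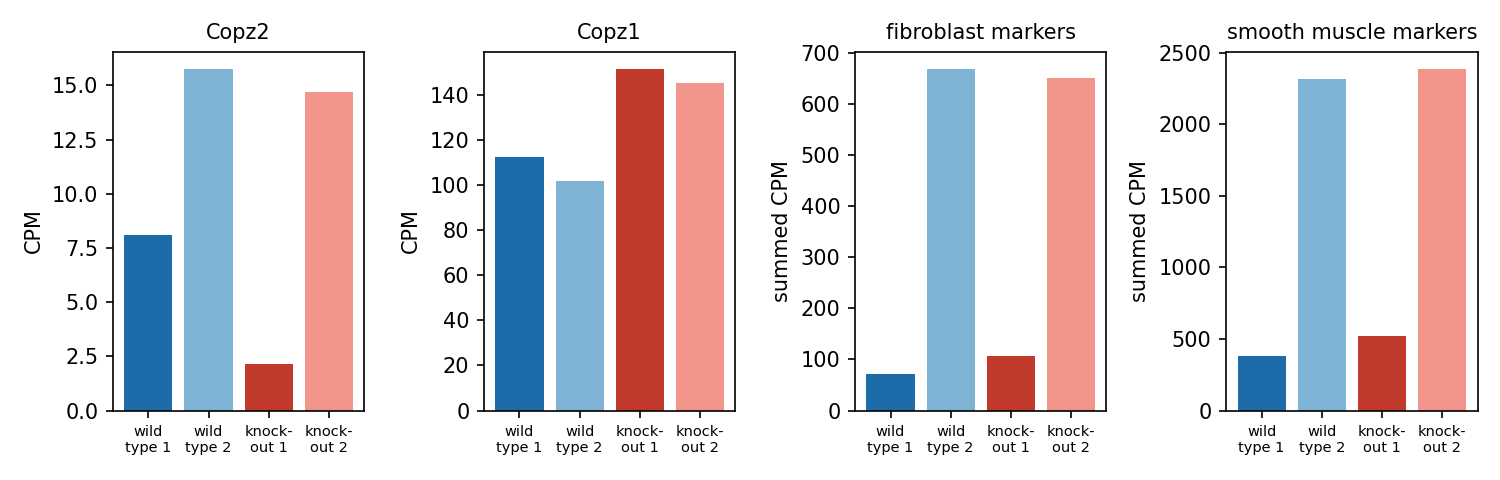
CPM of Copz2 and Copz1 and summed CPM of 10 fibroblast and 10 smooth muscle markers (y axes, each from 0) in the 4 libraries (x axis). Copz1 is higher in both knockout libraries, whereas Copz2 and the marker sums are higher in library 2 of each genotype.

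Copg2, the less abundant gamma subunit, was at 48.3 and 46.5 CPM in the wild-type libraries and at 39.5 and 40.9 CPM in the knockouts. Both knockout values lay below both wild-type values (log2 fold change -0.24 ± 0.12, with 0.424 as the adjusted p of edgeR). Copg2 took 28.5% and 29.9% of the gamma pair for wild type against 23.9% and 25.5% for knockout, and among the 10 pairs of paralogs compared it was the only one whose share did not overlap between the genotypes. Of its merged exon bases, 17.8% overlap Mest on the opposite strand. Whether the counting used strand is not given in the sources used here, so its values are uncertain.

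All 3 KDEL receptor genes were higher in both knockout libraries. Kdelr1 was at 118 and 110.2 CPM in the wild-type libraries and at 133 and 137.5 CPM in the knockouts (log2 fold change 0.25 ± 0.15, with 0.492 as the adjusted p of edgeR). Kdelr2 was at 101 and 85.6 against 111 and 122 CPM (0.32 ± 0.17, with 0.439 as the adjusted p of edgeR). Kdelr3 (ENSMUSG00000010830.8, chr15:79516411-79527739, plus strand), the least expressed receptor, was at 4.03 and 5.42 CPM in the wild-type libraries and at 6.28 and 18.2 CPM in the knockouts, with 100, 104, 140 and 440 counts. Knockout 1 lay just above the wild-type libraries and knockout 2 far above them. The log2 fold change of Kdelr3 was 1.37 ± 0.59 (SE from 2 libraries per genotype, with 0.367 as the adjusted p of edgeR), 1.89 without knockout 1 and 0.35 without knockout 2. Against Kdelr1, the share of Kdelr3 in the counts of the pair was 3.31% and 4.69% for wild type against 4.50% and 11.7% for knockout.

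The genes of the ER lumen proteins that these receptors retrieve had a median log2 fold change of 0.61 against 0.32 for the receptors, a gap that was not tested. The list holds 23 chaperones and folding enzymes, most with a KDEL-like tail. Of these 17 were higher, 14 without overlap (60.9%, against 26.3% of genes tested). Pdia4, a disulfide isomerase, was at 82.5 CPM in both wild-type libraries and at 185 and 160 CPM in the knockouts (log2 fold change 1.06 ± 0.16, with 0.209 as the adjusted p of edgeR). Sdf2l1, a partner of the chaperone BiP, was at 25.9 and 22.7 against 54.2 and 42.1 CPM (0.99 ± 0.19, with 0.210 as the adjusted p of edgeR). None of the 23 passed edgeR's adjusted threshold, and 10 had an unadjusted p under 0.05 (43.5%, against 15.9%). DESeq2 called 7 of the 23 (30.4%, against 7.42% of genes tested) and limma voom called 0. Without knockout 2, edgeR called 3 of them, Pdia4, Sdf2l1 and Erp29, where it called 5.80% of all genes. The mucous neck and metaplasia marker sum, led by Tff2, was higher in both knockout libraries as well, and its part in these values was not tested. Of the 10 pancreas markers Cela1 made up most of the sum, at 22.8 and 19.9 against 116 and 54.5 CPM, and the other 9 summed to 4.16 and 18.5 against 0.538 and 21.4 CPM.

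Set against the receptors, the lumen residents differed in 1 library. Their summed level was 4930 and 4276 CPM in the wild-type libraries and 7751 and 5933 CPM in the knockouts, and that of the 3 receptors 223 and 201 against 250.2 and 278 CPM. The ratio of the sums was 22.1 and 21.3 in wild type, 31.0 in knockout 1 and 21.3 in knockout 2. Knockout 1 is the library with the lowest chief cell and highest forestomach and antral marker sums, and the part of these in the ratio was not tested. The ratio was computed after the values had been seen.

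**Figure D4:**
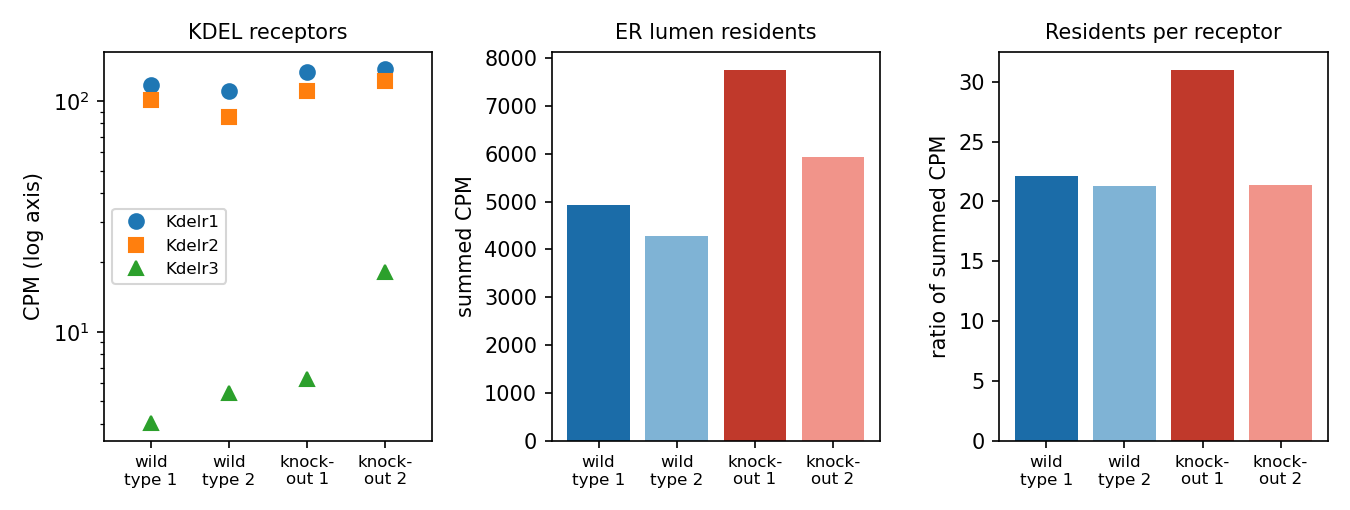
CPM of the 3 KDEL receptor genes on a log axis (left), summed CPM of 23 ER lumen residents (middle) and the ratio of resident to receptor CPM (right) in the 4 libraries (x axes). Both sums are higher in both knockout libraries, and the ratio is higher only in knockout 1.

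Among the cargo receptors, Ergic1 showed the clearest separation of all members. Ergic1 (ENSMUSG00000001576.14, chr17:26561489-26656934, plus strand) encodes a membrane protein that cycles between ER and Golgi. It was at 100.5 and 93.4 CPM in the wild-type libraries and at 151 and 165 CPM in the knockouts, with 2492, 1793, 3372 and 4005 counts. Both knockout libraries lay well above both wild-type libraries, with a mean of 97.0 ± 5.05 CPM in the wild-type libraries and 158 ± 10.1 CPM in the knockouts (SD, n = 2 per group), or 1.63-fold. The log2 fold change was 0.71 ± 0.16, and its adjusted p was 0.229 in edgeR against 0.0030 in DESeq2. Across the 13 alternatives its log2 fold change stayed between 0.59 and 0.77, with adjusted p-values from 0.0030 to 0.738. It was 0.72 without knockout 1 and 0.59 without knockout 2. The promoter window of Ergic1 held none of the 5 motifs searched.

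TMED (p24) proteins help select cargo and form COPI and COPII vesicles, and 4 of their genes are members. Tmed9 was at 102 and 93.6 CPM in the wild-type libraries and at 137.5 and 131 CPM in the knockouts, without overlap (log2 fold change 0.45 ± 0.15, with 0.290 as the adjusted p of edgeR). Tmed2 was at 356 and 333 against 424 and 391.7 CPM, and Tmed10 at 224 and 211 against 234 and 229 CPM. The knockout values of both were above the wild-type values, with a log2 fold change of 0.09 ± 0.17 for Tmed10. Tmed3 was at 56.4 and 71.8 CPM in the wild-type libraries and at 50.2 and 88.4 CPM in the knockouts, so the knockout libraries lay on either side of the wild type. Its log2 fold change of 0.11 ± 0.33 became -0.41 without knockout 2, 0.41 without knockout 1 and -0.04 without wild type 1. The other tested TMED genes, which are not members and are named after their values were seen, did not share 1 direction. Tmed1, Tmed4, Tmed6 and Tmed8 had log2 fold changes of -0.36, -0.29, -1.37 and -0.39 and kept that sign under all 13 alternatives. Tmed5 at 0.30 and Tmed7 at 0.03 kept their sign under the other scalings but ranged from -0.07 to 0.51 and from -0.21 to 0.15 over all alternatives.

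Lman1 and Mcfd2, the 2 parts of a receptor for glycoproteins such as coagulation factors, had fold changes of opposite sign. Lman1, the lectin that binds mannose-rich glycans, was at 99.3 and 98.0 CPM in the wild-type libraries and at 107 and 145 CPM in the knockouts (log2 fold change 0.36 ± 0.21, with 0.485 as the adjusted p of edgeR). The difference was mostly in knockout 2, and without it the log2 fold change was 0.063. Mcfd2 (ENSMUSG00000024150.11, chr17:87254443-87265935, minus strand), its calcium-binding partner, was at 68.7 and 77.9 CPM in the wild-type libraries and at 44.7 and 58.1 CPM in the knockouts. Both knockout values lay below both wild-type values (log2 fold change -0.51 ± 0.19, with 0.321 as the adjusted p of edgeR), the lowest fold change among all 32 members. The GASE letters stood both before the start site of Mcfd2, which was lower, and at that of Tmed9, which was higher, with the motif in capitals.
Mcfd2, chr17:87266121-87266149, minus strand: acccacggtgaGCCACGTtccggagcctc
Tmed9, chr13:55593120-55593148, plus strand: tccgctgggctACGTGGCtcggcagtctg

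Across members, holding a motif and the size of the difference can be set side by side. The 7 members with the UPRE letters had a median log2 fold change of 0.29 (range -0.02 to 1.37), and the 21 without them 0.11 (range -0.51 to 0.71). The 14 with the GASE letters had a median of 0.12 and the 14 without them 0.13. No test was made of these medians.

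Levels between genes were compared per length, as RPKM, which is CPM divided by the kilobases of merged exons. Arf1 was highest, at 226.5 and 186.5 RPKM for wild type against 258 and 215 RPKM for knockout, followed by Tmed2 at 141 and 132 RPKM against 168 and 155 RPKM. At the other end in wild type were Sec24a at 3.78 and 3.88 RPKM, Kdelr3 at 2.86 and 3.84 RPKM and Sec16b at 3.27 and 2.77 RPKM, and Kdelr3 and Sec16b did not differ beyond the spread between libraries. Arf1 and Tmed2 were the highest and these 3 the lowest in wild type also when the longest coding transcript gave the length. Ranks in between depended on the length used, as for Arcn1, which was 19th by merged exons and 7th by transcript length.

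The rest of the ER-Golgi route gave a mixed picture, from 7 lists with 136 tested genes. None passed edgeR's adjusted threshold, and 16 had an unadjusted p under 0.05 (11.8%, against 15.9% of genes tested). DESeq2 called 8 (5.88%, against 7.42% of genes tested), of which 7 were lumen residents, and limma voom called 0. Of 20 SNARE and fusion genes 5 were higher and 15 lower (median -0.06), and of 33 tether and Rab genes 13 were higher and 20 lower (median -0.05). Ykt6, a SNARE, was at 229 and 195 CPM in the wild-type libraries and at 161.5 and 153.5 CPM in the knockouts (log2 fold change -0.43 ± 0.18), and Stx17 at 48.2 and 43.1 against 35.2 and 35.4 CPM (-0.37 ± 0.13). The Golgi tether subunit Cog7 was at 37.0 and 34.7 against 24.6 and 26.4 CPM (-0.49 ± 0.13), while Zw10, part of an ER tether and of the kinetochore, was at 17.0 and 14.4 against 24.8 and 23.0 CPM (0.60 ± 0.16). The proliferation marker Mki67 was at 89.6 and 60.0 CPM in the wild-type libraries and at 151.5 and 124 CPM in the knockouts beside it, and its part in Zw10 was not tested.

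Regulators close to the coats had fold changes in both directions. Of 12 genes listed as COPII regulators 7 were higher and 5 lower. Of 15 listed as COPI regulators 10 were higher and 5 lower, and the medians were 0.04 and 0.08. The log2 fold changes ran from -0.99 to 0.29 and from -0.43 to 0.52, and 7 of 12 and 9 of 15 did not overlap between the genotypes, against 50.1% of genes tested. Arfgap1, which ends the cycle of Arf1, was at 30.4 and 26.7 CPM in the wild-type libraries and at 35.2 and 38.0 CPM in the knockouts (log2 fold change 0.36 ± 0.14), and Tmem115 at 29.5 and 29.4 against 36.2 and 33.5 CPM. Among the genes listed for COPII the 2 with the smallest p were both lower. Tecpr1, not an established part of the COPII route, was at 81.3 and 67.6 against 60.3 and 51.4 CPM. Sec31b was at 1.77 and 1.35 against 0.583 and 0.991 CPM. Of 17 tested genes among the other TMED and cargo receptors 10 were higher and 7 lower. The lectin Lman2 was at 167 and 142 against 229 and 191 CPM (0.45 ± 0.20). Svip, listed with them but not a cargo receptor, was at 16.7 and 18.8 against 11.6 and 14.5 CPM.

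The 16 genes listed as regulators of trafficking gene transcription, not all of them transcription factors, were higher in 8 and lower in 8 cases. Creb3l3, a membrane-bound factor known from liver and intestine, was at 1.86 and 0.781 CPM in the wild-type libraries and at 27.2 and 9.21 CPM in the knockouts (log2 fold change 3.77 ± 0.78, with 0.226 as the adjusted p of edgeR, DESeq2 adjusted p = 6.9e-05). Without knockout 2 edgeR called it at 4.30 ± 0.53 (adjusted p = 0.0496). The intestinal marker Vil1 was at 64.8 and 39.5 against 377 and 76.6 CPM, and its part in Creb3l3 was not tested. Creb3, a relative, was at 44.0 and 37.5 against 58.4 and 50.7 CPM. Xbp1, which binds the UPRE, was at 323.5 and 325 CPM in the wild-type libraries and at 236 and 342 CPM in the knockouts, and Tfe3, which binds the GASE, at 26.2 and 24.2 against 31.5 and 27.1 CPM. These 2 were picked for the motifs they bind, after the values were known, and Xbp1 overlapped between the genotypes whereas Tfe3 did not.

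**Figure D5:**
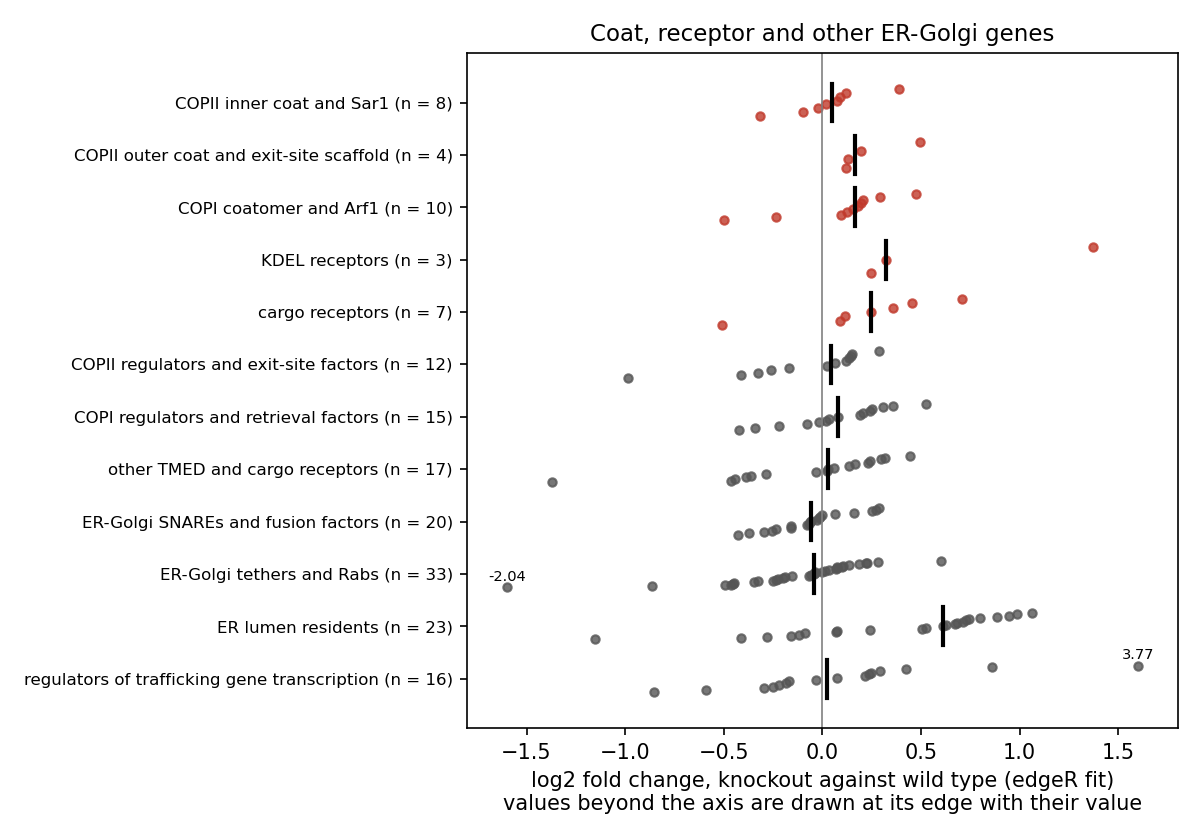
Log2 fold change of knockout against wild type in the edgeR fit (x axis) for each tested gene of the 5 groups of members (red) and of 7 other lists (grey), with black bars at the medians. The medians of the member groups run from 0.05 to 0.32, and the ER lumen residents stand at 0.61.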

How the data were processed

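A kit that keeps strand was used for the mRNA libraries, per the labels' protocols, and the genome build was mm10, per the submitters' processing notes. Aligner, counter and annotation: not given in the sources used here. The deposited table holds expected counts per gene, of which 35.0% of nonzero values were not whole, and these were rounded. Values that are not whole can come from reads divided among similar genes, and 9 members had such values (Sec23b, Sec24a, Copg2, Arcn1, Kdelr2, Tmed2, Tmed3, Tmed9 and Tmed10), so how paralogs split reads is uncertain for them. Symbols and exon lengths come from GENCODE M21 (34652 of 34866 rows matched). The comparison used edgeR 4.0.16 in R 4.3.3 with its robust quasi-likelihood test and TMM factors and without covariates. The filterByExpr minimum of 10 counts left 14067 genes, and 0.05 was the threshold for Benjamini-Hochberg adjusted p-values. Tested on simulated data with known changes, the script called most of the larger changes and few of the smaller ones, so a count of 0 does not show equal levels. The simulation does not show that large changes would be called in the deposited counts. There Muc6 itself, with a log2 fold change of -10.6, had 0.178 as the adjusted p of edgeR and did not pass. The standard error is the log2 fold change divided by the square root of F. CPM was scaled by TMM. The alternative tools were DESeq2 1.42.0 and limma 3.58.1. Per-library log2 differences add 0.5 to CPM, except in the plot of members by library, where nothing is added. The chi-square per degree of freedom between libraries was 139 in wild type and 272 in knockout, so none was a duplicate.

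Members and lists were chosen with earlier results of these data known. Named genes were all members, Muc6, the 2 smallest p-values in each other list, and of the marker lists the gene with the highest mean CPM and those at 0. Genes named outside that rule, after their values were seen, were Erp29, Mest, Xbp1, Tfe3, Sst, Bhlha15, Creb3l1, the TMED genes that are not members, and those printed for a promoter match. The marker lists not described in the report summed in wild type and knockout to 118080, 79155, 65704 and 52707 CPM for surface pit cells (Gkn2 highest), 572, 1260, 135 and 573 for enteroendocrine cells (Ghrl), 278, 655, 415 and 395 for plasma and B cells (Sdc1), 14.6, 78.9, 13.5 and 36.3 for macrophages and myeloid cells (Lyz2), 27.0, 38.4, 117 and 75.9 for exocrine pancreas (Cela1; Prss2 at 0), and 310, 241, 592 and 516.5 for proliferation (Mki67).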

Additional observations from a re-analysis of the deposited data

How the results depend on the processing

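The alternatives were other scaling factors, other filters, 2 other tools (DESeq2 and limma voom), dispersion that was not robust, a block for the sample number, and each library left out, 13 in all. The number of members higher in knockout stayed at 22 to 27 of 32 under all of them, where 44.7% to 54.6% of all genes were higher. The median log2 fold change of members, 0.14, was 0.12 with RLE factors and 0.15 with upper-quartile factors. It was 0.20 when the 20 most abundant genes were kept out of library sizes and 0.10 with no filter. DESeq2 gave 0.12 and limma voom 0.15, and with 1 library left out it was 0.065 to 0.26. The median of all genes moved as well. It was -0.0241 with RLE factors, 0.0031 with upper-quartile factors, 0.0495 with those 20 genes kept out and -0.0484 with no filter. DESeq2 gave -0.0244 and limma voom 0.019 for all genes, and with 1 library left out their median was -0.0702 to 0.0375. DESeq2 called 1 member (3.12%) and 8 of the other ER-Golgi genes (5.88%), against 7.42% of genes tested, where edgeR called 0 and 0. With 1 library left out edgeR called 0 members throughout and 0 to 5 of the other genes, the 5 being without knockout 2. With 1 library left out, members at an unadjusted p under 0.05 were 0 to 6 (0 without wild type 1 or 2, against 5.93% and 6.61% of all genes, and 6 or 18.8% without knockout 2, against 25.4%). Members without overlap were then 20 to 31, where fewer libraries make overlap rarer. The shares were 84.4% against 77.8% of all genes without wild type 1 and 62.5% against 70.9% without wild type 2. They were 87.5% against 71.9% without knockout 1 and 96.9% against 81.4% without knockout 2. With the 20 most abundant genes kept out of library sizes, 18 members did not overlap (56.2%, against 50% of all genes). The cause of the other differences was not tested. Over all genes tested, edgeR called 9 without knockout 1, 851 without knockout 2 and 9 with no filter.

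Signs changed for small differences. The log2 fold change of Sec23a was 0.020 when those 20 genes were kept out, and that of Sec24a was -0.0076 with RLE factors, -0.025 with no filter and -0.0073 by DESeq2. With 1 library left out, the ranges that crossed 0 were -0.30 to 0.13 for Sec23a, -0.18 to 0.10 for Sec24a, -0.063 to 0.30 for Sec24c, -0.044 to 0.18 for Sec13, -0.11 to 0.15 for Sar1a, -0.074 to 0.20 for Sar1b, -0.12 to 0.85 for Sec16b, -2.53 to 0.24 for Copz2 and -0.41 to 0.41 for Tmed3.

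The sample numbers are not stated to pair the libraries. Deviations of same-numbered libraries correlated at 0.53 across genes. With the replicate block edgeR called 0 members, and 6 had an unadjusted p under 0.05 (18.8%, against 23.8% of all genes). Of the members 26 were higher, the median was 0.15 and 20 did not overlap (62.5%, against 50.1% of all genes). With that block 0 other ER-Golgi genes were called.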

Other observations

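Tmed6, a TMED family gene outside the members, had a wider ratio of highest to lowest library than any member. It was at 72.8 and 153 CPM in the wild-type libraries and 6.19 and 81.0 CPM in knockouts 1 and 2 (log2 fold change -1.37 ± 1.24 as SE, with 0.660 as the adjusted p of edgeR). Bhlha15, a regulator of zymogen cell secretory capacity, was at 9.60 and 29.7 CPM in the wild-type libraries and 0.897 and 20.8 CPM in the knockouts. Creb3l1, a membrane-bound transcription factor, was at 97.3 and 103 CPM against 71.4 and 164 CPM. All 3 were lowest in knockout 1, as was the chief cell marker Pgc, at 63619 and 145529 CPM in the wild-type libraries and 2238 and 79868 CPM in the knockouts. These genes were picked after their values were seen.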
